A study of Mus musculus with 7 samples.

Results

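The 37 genes described here encode the machinery that copies DNA and the factors that start S phase. Before S phase the origin recognition complex, Cdc6 and Cdt1 load the ring of Mcm2 to Mcm7 onto DNA, a step called licensing. Cdc45 and the GINS complex then turn that ring into an active helicase, polymerases copy both strands, and the sliding clamp PCNA holds them there. Many of these genes are targets of E2F transcription factors, which the retinoblastoma protein holds back until cyclin-dependent kinases release them, and CD8+ T cells switch the programme on when they are activated and divide. The members were taken by symbol from a list covering 7 roles, and all 37 were found among the 56422 symbols of the table. That list was chosen with earlier results of these data known. All 37 also passed the filter on low values, a TPM (a length-corrected level scaled to a fixed total per library) of at least 1 in at least 3 libraries, as did 14967 symbols in all.

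RNA was sequenced from 7 samples labelled CD8+ T cells, taken from the ascites of mice with peritoneal metastasis. The 3 treated samples came from mice given propionate together with butyrate, which are short-chain fatty acids that gut microbes release, and the 4 control samples from mice given no treatment. The labels give no strain, age, tumour line, dose or animal number, so p-values reflect only how far these samples differ from each other, and that spread may be technical. Per the series title the work is concerned with mannose and anti-PD-1 therapy in ovarian cancer, and the comparison asks what the 2 metabolites changed. Libraries are called treated replicates 1 and 2, the third treated library, whose column carries a number that no sample has, and control replicates 1 to 4. Values for several libraries are given in that order.

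The libraries held more than CD8+ T cells. Cd8a, which encodes the CD8 alpha chain, stood at 113, 242 and 54.2 TPM in the treated libraries and at 15.6, 14.8, 7.95 and 18.0 TPM in the control libraries. Apoe, an abundant macrophage transcript, stood at 2316, 1417 and 1582 TPM in the treated libraries and at 4121, 3895, 8468 and 3741 TPM in the control libraries. In bulk RNA, fewer cells of a type and less RNA per cell cannot be told apart, and dividing T cells, tumour cells and macrophages all use the genes described here. Summed over 16 T cell markers, the level was 699 to 2955 TPM in treated libraries and 143 to 250 TPM in control libraries, without overlap, and all 16 rose.  The 12 tumour epithelium and mesothelium markers summed to 846 to 1592 TPM in treated libraries and to 2236 to 2757 TPM in control libraries. Of the 11 tested, 8 fell and 0 rose, where 7.59% of all tested genes fell and 4.3% rose. Wt1, Lrrn4 and Cdh1 were not called (log2 fold changes of -0.69, -0.65 and 0.04), and Epcam did not pass the filter. The 12 macrophage and monocyte markers summed to 3397 to 4130 TPM in treated libraries and to 6199 to 15034 TPM in control libraries. Apoe and Lyz2, at treated means of 1772 and 1318 TPM and control means of 5056 and 2171 TPM, carry most of that sum. Of the 12, 3 fell and 0 rose, and Adgre1 and Ccr2 had estimates above 0 (0.14 and 0.49) that did not pass. Fibroblast, endothelial and erythroid markers also summed to less in every treated than in every control library, at ratios of 0.519, 0.659 and 0.192. Of their tested genes 4 of 5, 3 of 4 and 4 of 4 fell, where 7.59% of all tested genes fell and 4.3% rose. Dcn, at means of 130 TPM in treated and 250 TPM in control libraries, carries most of the fibroblast sum. Esam, at means of 40.2 and 68.8 TPM, carries most of the endothelial sum. Pdgfra (log2 fold change -0.59) and Pecam1 (0.09) were not called, and Lum, Pdgfrb, Fap, Cdh5, Kdr and Alas2 did not pass the filter. Sums of B and plasma cell, neutrophil and dendritic cell markers overlapped between the groups, at ratios of 1.15, 0.568 and 0.919. Natural killer cell markers summed to 2.96 to 7.81 TPM in treated and 1.73 to 2.31 TPM in control libraries, but 0 of them passed the filter. No marker of these lists was at 0 in every library. The third treated library stood apart: mitochondrially encoded genes took 32.9% of its TPM, against 15.7% and 17.1% in the other treated libraries and 13.6% to 18.2% in control libraries. Since TPM has the same total in every library, a higher share there leaves less for all other genes. The part of cell content and of the mitochondrial share in the results that follow was not tested.

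Most replication genes were lower in treated than in control libraries, and few passed the test. The 37 genes together held 710, 786 and 470 TPM in the treated libraries and 899, 928, 908 and 819 TPM in the control libraries. With TPM as deposited, the treated libraries therefore all lay below the control libraries. The mean was 655 ± 165 TPM (SD, n = 3) in treated and 888 ± 47.9 TPM (SD, n = 4) in control libraries, a ratio of 0.738. By limma on log2(TPM + 1) with Benjamini-Hochberg adjustment over all tested genes, 4 of the 37 fell and 0 rose at an adjusted p under 0.05. These were Gins1, Rfc4, Rfc5 and Tyms, or 10.8% of the members, beside 7.59% of all tested genes that fell and 4.3% that rose. The unadjusted limma p was under 0.05 for 17 of the 37, and for 4567 of all 14967 tested genes. The estimate was below 0 for 34 members and above 0 for 3, namely Cdt1, Gins3 and Ccne1. The median log2 fold change of the members was -0.43, where that of all tested genes was -0.24 and 73.4% of all tested genes lay below 0. When libraries were instead brought to a common level by the median of gene ratios, the median of all genes was -0.0046 and that of the members -0.16. Then 26 members lay below 0, 11 above 0, and 3 were called lower (Gins1, Rfc5 and Rrm1), beside 6.38% of all tested genes. The ratio of the summed levels was 0.784 with TPM rescaled without mitochondrially encoded genes and 0.873 with the median-of-ratios scaling. That scaling also changed the makeup of all calls, of which 42.2% were lower, against 63.9% with TPM as deposited. The calls were fragile in these few libraries: 0 members were called lower without control replicate 1, 2 or 3, and 1, Tyms, without control replicate 4. In those fits, in that order, 4.7%, 3.95%, 4.95% and 5.2% of all tested genes were lower, so calls were lost among all genes too.

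**Figure D1:**
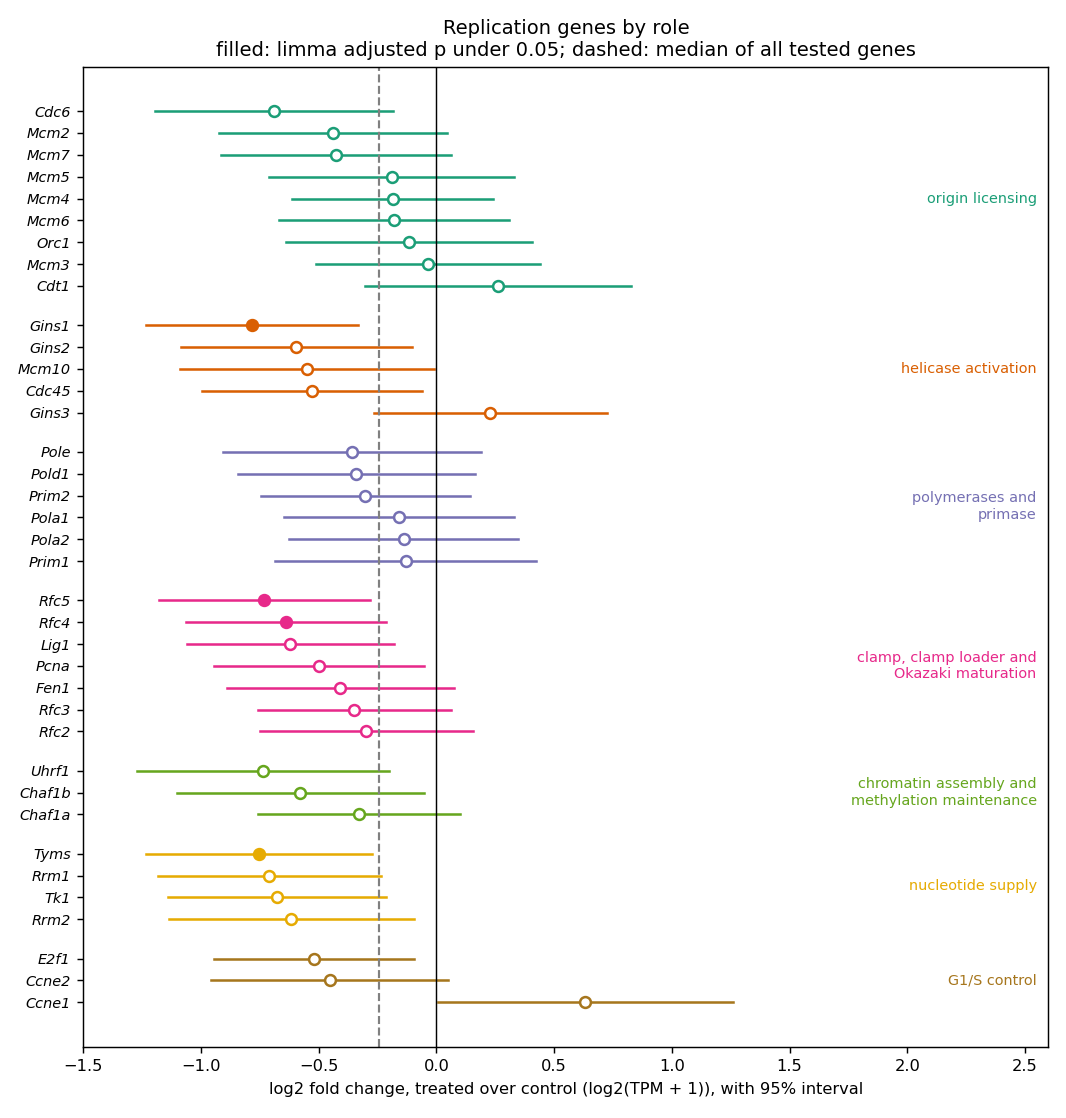
Log2 fold change of each replication gene (x axis, treated over control, on log2(TPM + 1)) with its 95% interval from limma, grouped by role down the page; filled points passed an adjusted p of 0.05 and the dashed line is the median of all tested genes. The 4 filled points are Gins1, Rfc5, Rfc4 and Tyms, and only Cdt1, Gins3 and Ccne1 lie right of 0, where 11 genes do under median-of-ratios scaling.

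No member lay above the control libraries in every treated library, while 16 of the 37 lay below them in every treated library. Among all tested genes the treated libraries lay wholly below the control libraries for 25.7% and wholly above for 4.82%. The treated libraries did not resemble each other in this. In treated replicate 1, 29 members lay below all 4 control libraries (32.7% of all tested genes did) and 2 above them (26.1% of all tested genes). In treated replicate 2, which had the highest T cell marker sum, 16 lay below (43.2% of all tested genes) and 10 above (26.9% of all tested genes). Those 10 were Orc1, Cdt1, Mcm3, Mcm4, Mcm5, Mcm6, Gins3, Prim1, Pola2 and Ccne1. In the third treated library 34 lay below (75% of all tested genes) and 0 above (6.04% of all tested genes), and it held the lowest value of 31 of the 37 members. The median ratio of a member to its control mean was 0.775, 0.911 and 0.530 in the treated libraries in that order, where the median over all tested genes was 0.969, 0.901 and 0.626.

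**Figure D2:**
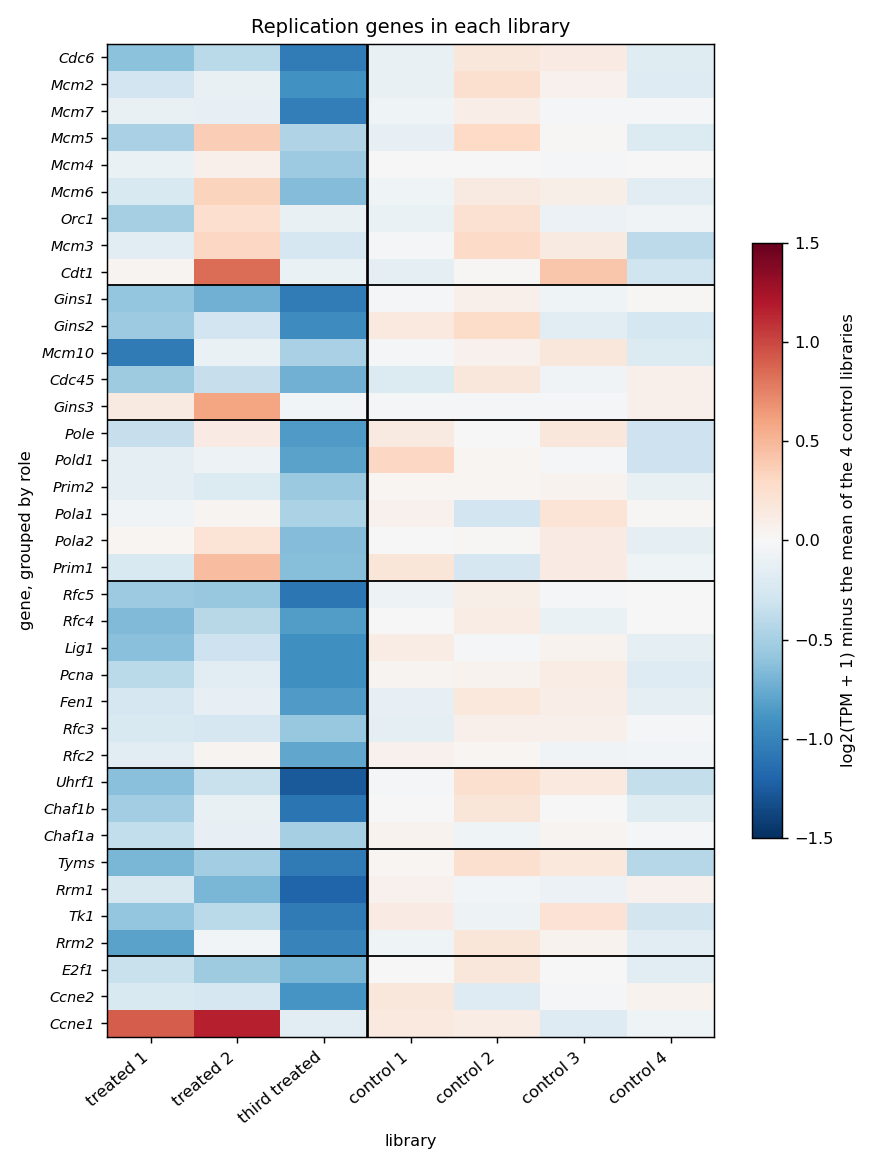
Level of each replication gene (rows, grouped by role) in each library (columns, treated left of control) as log2(TPM + 1) minus the mean of the 4 control libraries, red higher and blue lower. The third treated library is blue in nearly every row, and 75% of all tested genes lay below all 4 control libraries there. In treated replicate 2, 10 genes (27.0%) lie above all 4 control libraries, beside 26.9% of all tested genes.

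Among the licensing genes, 0 of 9 passed the test, where 7.59% of all tested genes fell and 4.3% rose. Their median log2 fold change was -0.19, beside -0.24 for all tested genes. Mcm7, one of the 6 subunits of the ring-shaped helicase and the most abundant of them here, stood at 60.4, 59.9 and 31.5 TPM in the treated libraries, against 62.7, 70.5, 64.6 and 64.6 TPM in the control libraries. The groups did not overlap, but 2 treated libraries lay just under the control range (log2 fold change -0.43, SE 0.23, limma adjusted p = 0.221). Mcm4 stood at 23.6, 26.8 and 17.04 TPM in the treated libraries and was even in the control libraries at 25.4, 25.4, 25.0 and 25.2 TPM. For Mcm6 the treated libraries gave 38.6, 57.4 and 28.4 TPM and the control libraries 43.4, 49.9, 48.2 and 40.3 TPM, so that treated replicate 2 was the highest of all 7 and the third treated library the lowest. Mcm5 behaved likewise, at 10.5, 19.8 and 10.8 TPM in the treated and 13.85, 18.9, 15.4 and 12.95 TPM in the control libraries, save that its lowest value was in treated replicate 1. Mcm2, Mcm3, Mcm5 and Mcm6 had log2 fold changes of -0.44, -0.04, -0.19 and -0.18, and Mcm4 of -0.19. Under median-of-ratios scaling the estimates of Mcm3, Mcm4, Mcm5 and Mcm6 turned to 0.23, 0.08, 0.07 and 0.09, none of them called. The 6 subunits join the ring in equal numbers, yet their mean transcript levels over all 7 libraries ran from 14.6 TPM (Mcm5) through 18.0 (Mcm2), 21.2 (Mcm3), 24.1 (Mcm4) and 43.7 (Mcm6) to 59.2 TPM (Mcm7).

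None of the loaders of the ring passed the test, where 7.59% of all tested genes fell and 4.3% rose. Cdc6, the ATPase that helps to place the ring, stood at 1.74, 2.19 and 1.03 TPM in the treated libraries, against 2.88, 3.72, 3.60 and 2.72 TPM in the control libraries. Every treated library lay below every control library (log2 fold change -0.69, SE 0.24, limma adjusted p = 0.0698). Cdt1, its partner in loading, stood at 7.36, 13.5 and 6.57 TPM in the treated libraries and at 6.36, 7.19, 9.84 and 5.59 TPM in the control libraries. Only treated replicate 2 exceeded the control range (0.26, SE 0.26, adjusted p = 0.514). Without treated replicate 2 its estimate was -0.03. Orc1, a subunit of the origin recognition complex, had the lowest mean level of the 37 members at 1.04 TPM and a difference of -0.12 (adjusted p = 0.770), with 0.48, 1.48 and 0.93 TPM in the treated and 0.95, 1.45, 0.96 and 1.01 TPM in the control libraries. Mcm3 stood at 18.8, 26.4 and 17.5 TPM in the treated libraries and at 20.6, 26.0, 23.3 and 15.9 TPM in the control libraries, with the groups interleaved. The promoters of Cdt1, with the largest estimate above 0 among licensing genes, and of Mcm3, with the smallest difference of any member (95% interval -0.51 to 0.44), are shown as RefSeq windows from 250 bases before to 50 after the start site in GRCm38.p6, an earlier build than the mm39 named for these data. They lie at chr8:122567765-122568064, plus strand, and chr1:20820263-20820562, minus strand. Capitals in this and later windows mark any of 4 words of the E2F consensus, TTTCCCGC, TTTCGCGC, TTTGCCGC or TTTGGCGC, read on either strand.
Cdt1: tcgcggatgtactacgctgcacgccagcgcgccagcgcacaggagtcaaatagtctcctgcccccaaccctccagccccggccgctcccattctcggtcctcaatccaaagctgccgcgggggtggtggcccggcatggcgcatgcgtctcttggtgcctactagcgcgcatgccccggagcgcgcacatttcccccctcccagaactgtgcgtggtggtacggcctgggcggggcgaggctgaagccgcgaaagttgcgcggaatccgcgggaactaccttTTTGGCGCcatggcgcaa
Mcm3: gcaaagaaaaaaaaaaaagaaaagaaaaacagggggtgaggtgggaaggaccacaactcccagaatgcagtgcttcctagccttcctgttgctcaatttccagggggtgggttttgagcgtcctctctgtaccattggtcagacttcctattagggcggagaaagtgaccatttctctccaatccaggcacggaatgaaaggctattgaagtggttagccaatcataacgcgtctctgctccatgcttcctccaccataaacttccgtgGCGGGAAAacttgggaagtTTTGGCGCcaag

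Of the 5 genes that turn the licensed ring into a moving helicase, 1 fell, where 7.59% of all tested genes did. Gins1, a subunit of the 4-part GINS complex, fell to 4.95, 4.39 and 3.31 TPM in the treated libraries, against 7.68, 8.41, 7.47 and 8.03 TPM in the control libraries. The groups were far apart beside their spread, with means of 4.22 ± 0.834 TPM (SD, n = 3) in treated and 7.90 ± 0.412 TPM (SD, n = 4) in control libraries. Its log2 fold change of -0.78 (SE 0.21, 95% interval -1.23 to -0.33, limma adjusted p = 0.0283) was the lowest of the 37. Gins2, another subunit, stood at 8.22, 10.02 and 6.03 TPM in the treated libraries, against 13.96, 15.3, 11.1 and 10.3 TPM in the control libraries. Treated replicate 2 came close to control replicate 4 (-0.59, SE 0.23, adjusted p = 0.0990). Gins3 stood at 1.96, 3.09 and 1.63 TPM in the treated libraries and 1.67, 1.64, 1.67 and 1.84 TPM in the control libraries, with overlap (0.23, SE 0.23, adjusted p = 0.515). The fourth subunit, Gins4, is not among the 37 and had a log2 fold change of -0.35 (adjusted p = 0.265). Cdc45, the helicase cofactor, stood at 2.95, 3.49 and 2.47 TPM in the treated libraries and at 3.94, 5.43, 4.51 and 5.02 TPM in the control libraries, without overlap (-0.53, adjusted p = 0.121). Mcm10, which activates the helicase and is not part of the ring, had its lowest value, 1.33 TPM, in treated replicate 1 rather than in the third treated library (2.48 TPM), and treated replicate 2 (3.52 TPM) lay within the control range of 3.22 to 4.48 TPM. The Gins1 promoter has no entry in the table used; that of Gins3, shown because its estimate lies above 0, is at chr8:95633309-95633608, plus strand.
Gins3: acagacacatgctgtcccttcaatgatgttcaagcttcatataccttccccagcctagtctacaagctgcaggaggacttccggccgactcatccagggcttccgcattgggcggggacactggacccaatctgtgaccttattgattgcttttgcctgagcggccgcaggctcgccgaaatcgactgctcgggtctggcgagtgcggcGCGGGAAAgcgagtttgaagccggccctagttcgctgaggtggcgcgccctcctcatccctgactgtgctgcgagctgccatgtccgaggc

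**Figure D3:**
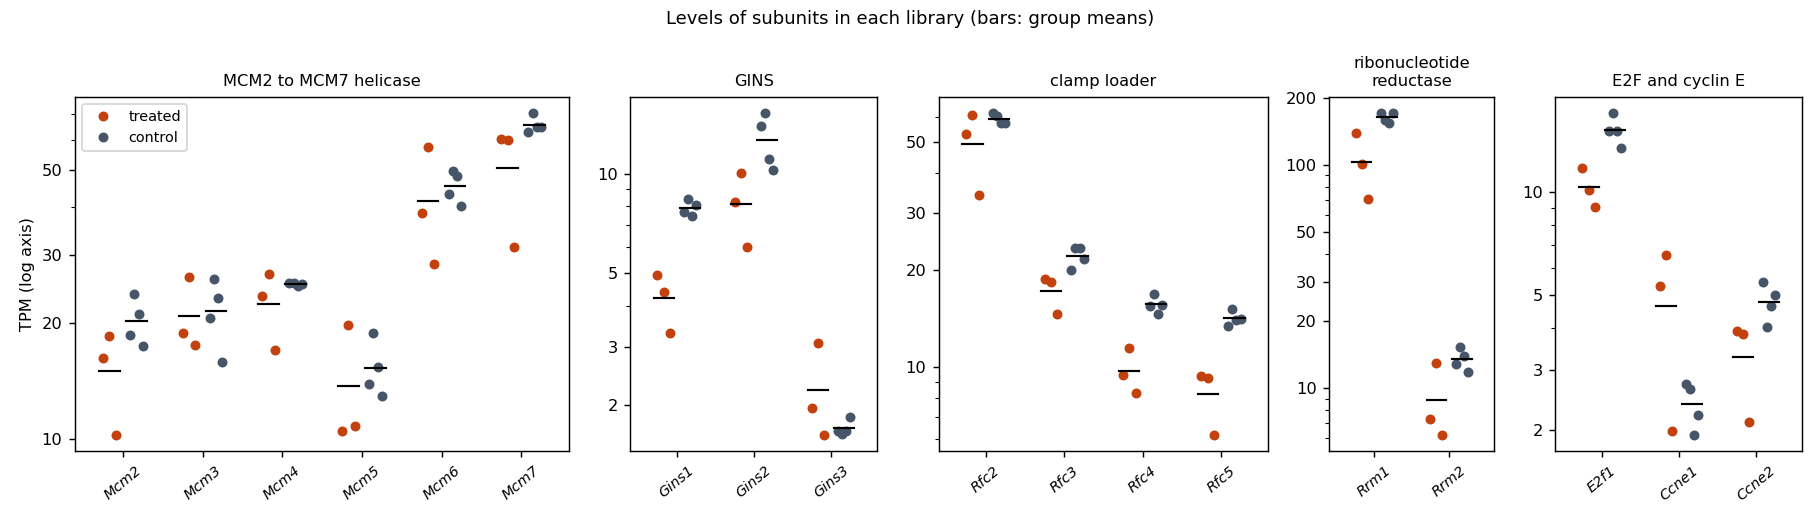
TPM in each library (log axis; treated left of control for each gene, bars are group means) for subunits that work together and for E2f1 with the E cyclins. Gins1, Rfc4 and Rfc5 separate the groups cleanly, while Mcm3, Mcm5 and Mcm6 overlap and 2 of 3 treated libraries exceed all control libraries for Ccne1.

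Among the polymerase and primase genes no difference was called. None of the 6 passed the test, where 7.59% of all tested genes fell. The unadjusted limma p was under 0.05 for 0 of the 6, and for 4567 of all 14967 tested genes. Their median log2 fold change of -0.23 lay beside the -0.24 of all tested genes. Pold1, the catalytic subunit of the lagging-strand polymerase delta, stood at 14.5, 15.2 and 8.77 TPM in the treated libraries, against 20.3, 16.4, 15.7 and 12.7 TPM in the control libraries, with overlap (-0.34, SE 0.24, limma adjusted p = 0.337). Pole, the catalytic subunit of the leading-strand polymerase epsilon, had a log2 fold change of -0.36 (adjusted p = 0.351). Pola1 and Pola2, subunits of the polymerase that extends primers, had -0.16 and -0.14, and the primase subunits Prim1 and Prim2 -0.13 and -0.30. Prim1 was highest of all libraries in treated replicate 2 (11.7 TPM) and lowest in the third treated library (4.91 TPM), with 6.73 to 9.42 TPM in the control libraries. Prim2 alone of the 6 separated the groups, at 6.48, 6.18 and 4.64 TPM in the treated and 7.43, 7.43, 7.61 and 6.67 TPM in the control libraries (-0.30, SE 0.21, adjusted p = 0.337). The estimates of Prim1, Pola1 and Pola2 lay above 0 with median-of-ratios scaling, at 0.11, 0.06 and 0.11.

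Genes of the sliding clamp, its loader and the joining of Okazaki fragments were all below 0, and 2 of 7 fell, where 73.4% of all tested genes lay below 0 and 7.59% fell. Pcna, the clamp itself and the most abundant of the 37 at a mean of 147 TPM, stood at 125, 147 and 87.5 TPM in the treated libraries, against 171, 172, 179 and 145 TPM in the control libraries. Treated replicate 2 lay just above control replicate 4, so the groups overlapped (-0.50, SE 0.21, limma adjusted p = 0.126). Rfc5, a small subunit of replication factor C, which opens the clamp around DNA, fell to 9.36, 9.25 and 6.17 TPM in the treated libraries, against 13.4, 15.2, 13.99 and 14.1 TPM in the control libraries (log2 fold change -0.73, SE 0.21, adjusted p = 0.0362). Rfc4, another small subunit, fell to 9.47, 11.5 and 8.30 TPM in the treated libraries, against 15.5, 16.9, 14.6 and 15.6 TPM in the control libraries (-0.64, SE 0.20, adjusted p = 0.0498). For both genes no treated library reached any control library. Rfc2 and Rfc3, the other small subunits listed, had log2 fold changes of -0.30 and -0.35 (adjusted p = 0.348 and 0.228), so not all 4 passed, and the difference between them was not tested. Lig1, the ligase that seals Okazaki fragments, stood at 12.9, 16.2 and 10.3 TPM in the treated and 22.2, 20.1, 21.3 and 18.3 TPM in the control libraries, without overlap (-0.62, SE 0.21, adjusted p = 0.0619). Fen1, the nuclease that trims their ends, stood at 10.99, 12.2 and 6.95 TPM in the treated and 12.2, 15.0, 14.4 and 11.9 TPM in the control libraries (-0.41, adjusted p = 0.231). The calls of Rfc4 and Rfc5 were lost without treated replicate 2 (adjusted p = 0.0670 and 0.0539) and without each control library in turn, Rfc4 up to 0.143 and Rfc5 up to 0.0964, with estimates between -0.60 and -0.81, and Gins1 lost its call in the same 5 fits, at up to 0.0785. The Rfc5 promoter is shown as that of a called gene, at chr5:117388974-117389273, minus strand, and holds none of the 4 words.
Rfc5: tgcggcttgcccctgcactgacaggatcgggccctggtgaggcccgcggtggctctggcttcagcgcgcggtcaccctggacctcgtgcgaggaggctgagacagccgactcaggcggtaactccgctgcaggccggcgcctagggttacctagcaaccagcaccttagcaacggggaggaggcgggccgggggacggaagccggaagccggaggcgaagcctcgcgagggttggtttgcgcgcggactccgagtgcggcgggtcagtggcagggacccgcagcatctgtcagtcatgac

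Nucleotide supply was the role with the lowest median, -0.69, and 1 of its 4 genes fell, where 7.59% of all tested genes did. Tyms, which makes thymidylate, fell to 13.5, 15.3 and 10.2 TPM in the treated libraries, against 22.8, 26.6, 25.1 and 16.3 TPM in the control libraries. Control replicate 4 lay close above the treated libraries and the other 3 well above them. The log2 fold change was -0.75 (SE 0.22, 95% interval -1.23 to -0.27, limma adjusted p = 0.0425). It was -0.60 (adjusted p = 0.0947) when the third treated library was left out, and adjusted p was 0.0922, 0.114 and 0.0962 without control replicates 1, 2 and 3 in turn. Rrm1, the large subunit of ribonucleotide reductase, stood at 139, 101 and 70.8 TPM in the treated libraries, against 172, 159.9, 154 and 172 TPM in the control libraries, without overlap (-0.71, SE 0.22, adjusted p = 0.0509). Its partner Rrm2, the small subunit whose level limits the enzyme in S phase, was over all libraries at a mean of 11.5 TPM, against 138 TPM for Rrm1. Rrm2 stood at 7.28, 13.03 and 6.21 TPM in the treated and 12.8, 15.4, 13.98 and 11.8 TPM in the control libraries, where treated replicate 2 lay within the control range (-0.62, SE 0.24, adjusted p = 0.107). Tk1, the thymidine kinase of the salvage route, stood at 19.2, 21.9 and 13.5 TPM in the treated and 31.8, 27.7, 34.2 and 23.9 TPM in the control libraries, without overlap (-0.68, SE 0.22, adjusted p = 0.0549). The Tyms promoter lies at chr5:30073576-30073875, minus strand, and holds none of the 4 words.
Tyms: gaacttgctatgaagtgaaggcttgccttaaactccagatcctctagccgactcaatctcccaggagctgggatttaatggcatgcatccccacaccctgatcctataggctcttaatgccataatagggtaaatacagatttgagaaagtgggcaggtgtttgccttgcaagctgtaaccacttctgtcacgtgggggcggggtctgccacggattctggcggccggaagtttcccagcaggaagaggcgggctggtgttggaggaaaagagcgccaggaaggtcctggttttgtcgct

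Of 3 genes that act on new chromatin none passed the test, where 7.59% of all tested genes fell and 4.3% rose. Uhrf1, which recruits the maintenance DNA methyltransferase to newly copied DNA, stood at 8.09, 10.2 and 4.86 TPM in the treated libraries, against 12.7, 15.5, 14.5 and 9.96 TPM in the control libraries. Treated replicate 2 overlapped control replicate 4 (log2 fold change -0.74, SE 0.25, limma adjusted p = 0.0676). Chaf1a and Chaf1b, subunits of the chromatin assembly factor that deposits histones behind the fork, had -0.33 and -0.58 (adjusted p = 0.279 and 0.131). Chaf1a separated the groups, at 7.22, 8.72 and 6.54 TPM in the treated and 10.02, 9.11, 9.92 and 9.41 TPM in the control libraries. Chaf1b did not, at 5.77, 7.97 and 3.54 TPM in the treated and 8.64, 10.1, 8.74 and 7.57 TPM in the control libraries. Uhrf1 has 2 windows in the promoter table, and the one that holds an E2F word, at chr17:56304063-56304362, plus strand, is shown.
Uhrf1: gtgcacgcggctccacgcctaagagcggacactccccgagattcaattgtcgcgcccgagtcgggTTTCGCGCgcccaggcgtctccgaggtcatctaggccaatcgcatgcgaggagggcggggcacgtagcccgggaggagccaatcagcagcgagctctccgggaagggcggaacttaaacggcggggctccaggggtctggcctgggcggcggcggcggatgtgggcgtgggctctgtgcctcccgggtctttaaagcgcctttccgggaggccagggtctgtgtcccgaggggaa

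None of the 3 regulators of S phase entry passed the test, where 7.59% of all tested genes fell and 4.3% rose. E2f1, an activating E2F factor, stood at 11.8, 10.1 and 9.03 TPM in the treated libraries, against 15.1, 17.1, 15.1 and 13.4 TPM in the control libraries. The groups did not overlap (log2 fold change -0.52, SE 0.20, limma adjusted p = 0.0974). Ccne2, one of a pair of E cyclins that drive the kinase Cdk2, stood at 3.91, 3.83 and 2.11 TPM in the treated and 5.45, 4.02, 4.62 and 4.97 TPM in the control libraries, also without overlap (-0.45, adjusted p = 0.207). Ccne1, the other E cyclin, stood at 5.31, 6.55 and 1.99 TPM in the treated libraries, against 2.73, 2.64, 1.94 and 2.22 TPM in the control libraries. Treated replicates 1 and 2 lay above every control library and the third treated library lay among them, giving the highest estimate of the 37 (0.63, SE 0.29, 95% interval 0.01 to 1.26, adjusted p = 0.159). Without the third treated library Ccne1 was at 1.04 and passed the test (adjusted p = 0.0190), and it did so also when control replicate 3 was removed as well (0.97, adjusted p = 0.0366). Its promoter, at chr7:38107441-38107740, minus strand, holds none of the 4 words.
Ccne1: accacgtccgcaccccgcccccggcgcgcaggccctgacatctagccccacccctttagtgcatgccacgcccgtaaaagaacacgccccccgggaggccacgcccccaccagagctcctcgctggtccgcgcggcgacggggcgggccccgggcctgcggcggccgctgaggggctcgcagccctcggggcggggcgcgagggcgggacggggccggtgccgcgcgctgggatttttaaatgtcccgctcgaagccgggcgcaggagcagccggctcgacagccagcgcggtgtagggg

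Promoter windows were found for 30 of the 37 genes, 35 windows in all, and 13 of the 30 genes (43.3%) held at least 1 of the 4 E2F words. Of the 10345 tested genes with a window, 4.67% did, and of all 27025 genes with a window, 2.6%. Windows of members and of tested genes had nearly the same median GC content, 60.0% and 60.3%, and those of all genes 52.7%. The 5-base CCAAT word stood in windows of 56.7% of the 30 genes and 42.7% of tested genes, and the 6-base word TTTGAA, known from promoters of mitotic genes, in 13.3% and 14.7%, both read on either strand. The 13 are the licensing genes Orc1, Cdc6, Cdt1, Mcm3, Mcm5, Mcm6 and Mcm7, together with Gins3, Pola1, Pold1, Rfc3, Lig1 and Uhrf1. Words overlapped each other in Mcm5 and Mcm6, and 1 overlapped a CCAAT word in Mcm7. A match is a string of letters and does not show a bound factor. The 13 genes with a word had a median log2 fold change of -0.19 (from -0.74 to 0.26) and the 17 without one -0.53 (from -0.75 to 0.63); this difference was not tested. Shown are 24 bases around the word nearest to the start site, on the gene's strand, with the word in capitals. It reads from the gene's strand in Cdt1, Mcm6, Mcm7 and Uhrf1 and from the opposite strand in the others.
Orc1: ggttagtgGCGCGAAAagttttct
Cdc6: ggtggagaGCGGGAAAtcgcctgg
Cdt1: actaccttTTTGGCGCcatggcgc
Mcm3: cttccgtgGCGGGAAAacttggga
Mcm5: gaactttcGCGCCAAAacgtccag
Mcm6: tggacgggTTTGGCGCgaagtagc
Mcm7: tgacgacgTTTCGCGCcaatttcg
Gins3: agtgcggcGCGGGAAAgcgagttt
Pola1: atcacaggGCGCCAAAtgcactcc
Pold1: ggcgtatcttgtgGCGGGAAAagc
Rfc3: tcgcgctcGCGGGAAAactctact
Lig1: caaagtgcGCGCGAAAtctgtgtg
Uhrf1: gagtcgggTTTCGCGCgcccaggc

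The other genes of the pathway had a median log2 fold change of -0.20. Of 76 listed genes 73 were tested, 4 fell (5.48%, beside 7.59% of all tested genes) and 0 rose. Ccnd1, a D-type cyclin common in epithelial cells, fell to 31.6, 23.3 and 18.9 TPM in the treated libraries, against 49.3, 66.4, 56.6 and 47.2 TPM in the control libraries (log2 fold change -1.14, SE 0.22, limma adjusted p = 0.00378). Ccna2, the cyclin of S and G2 phase, fell to 7.42, 10.1 and 5.64 TPM in the treated libraries, against 15.7, 18.6, 18.3 and 13.03 TPM in the control libraries (-1.02, SE 0.23, adjusted p = 0.0116). Dctpp1, a pyrophosphatase that clears abnormal dCTP, fell to 33.4, 26.3 and 20.5 TPM in the treated libraries, against 48.2, 55.7, 50.4 and 36.3 TPM in the control libraries (-0.82, SE 0.22, adjusted p = 0.0264). Cdk4, the partner kinase of the D cyclins, fell to 169, 131 and 89.9 TPM in the treated libraries, against 209, 227, 224 and 188 TPM in the control libraries (-0.74, SE 0.22, adjusted p = 0.0421). Each of these 4, named because they were called lower, was lower in every treated than in every control library, as were 25.7% of all tested genes. Several genes of the list had estimates above 0 that did not pass. Examples, named after their values were seen, are E2f2, an activating E2F factor (0.66, adjusted p = 0.109), and Ccnd2, a D cyclin (0.43, adjusted p = 0.246). Ccnd3, also a D cyclin of the list, lay below 0 (-0.21, adjusted p = 0.593). Groups of the list ran from a median of -0.07 for origin firing to -0.36 for nucleotide supply.

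In the same libraries markers of mitosis were also lower in the treated samples. The 15 genes summed to 119, 141 and 67.2 TPM in the treated libraries, against 217, 257, 221 and 187 TPM in the control libraries, a ratio of 0.495. Of the 15, 9 fell and 0 rose, with a median log2 fold change of -0.92, against 4 of 37 and -0.43 for the replication genes. Of all tested genes 7.59% fell and 4.3% rose, with a median of -0.24; the difference between the lists was not tested.

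**Figure D4:**
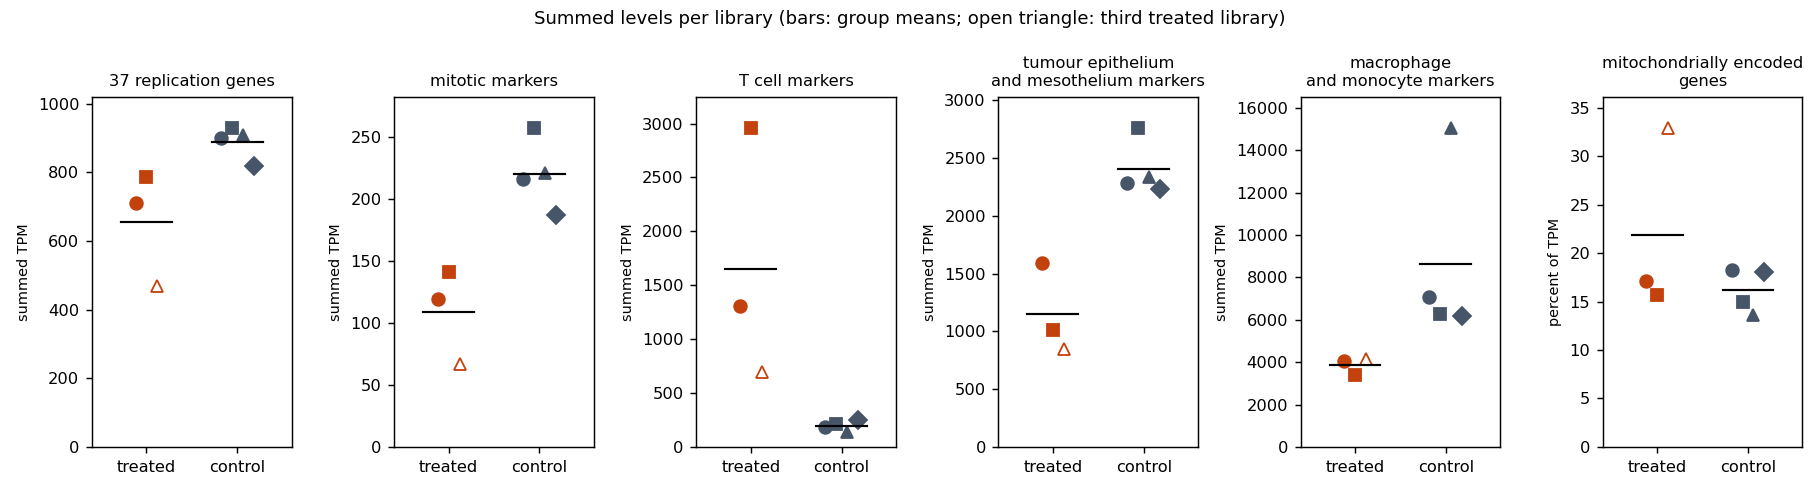
Summed TPM per library of the 37 replication genes, of mitotic markers and of 3 marker lists of cell types, and the share of mitochondrially encoded genes in percent; points are libraries, treated left of control, and bars are group means. Replication genes lie at 470 to 786 TPM in treated and 819 to 928 TPM in control libraries, and the open triangle, the third treated library, has the highest mitochondrial share.

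The members varied together across the libraries. Most members had a Pearson r above 0.8 with the mean standardised level of the other members, as for Chaf1b (0.993), Pcna (0.988), Uhrf1 (0.970) and Fen1 (0.965). The lowest were Ccne1 (0.054), Gins3 (0.106), Cdt1 (0.269) and Orc1 (0.420). These values are descriptions over 7 libraries that share 1 low library and a fixed total. Outside the list, the genes most like the mean of the members over the 7 libraries were Agpat2 (r = 0.998), Ube2a (0.996), Tmem179b (0.995), Rnpepl1 (0.994) and Cenpx (0.992). Agpat2, an acyltransferase of lipid synthesis, stood at 8.24, 10.3 and 5.46 TPM in the treated and 11.1, 11.6, 11.9 and 9.80 TPM in the control libraries. None of these 5 passed the test, with log2 fold changes from -0.53 to -0.29.

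The TPM of a gene was summed over its transcript rows, 2 (Gins3 and E2f1) to 13 (Pola2) per member. One row held from 38.4% (Uhrf1) to 98.9% (Mcm2) of a member's mean level. Copies of Pcna and Tyms that could share reads with them were at or near 0: Pcna-ps1 and Tyms-ps were listed at 0 in every library, and Pcna-ps2 reached 0.14 TPM.

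**Figure D5:**
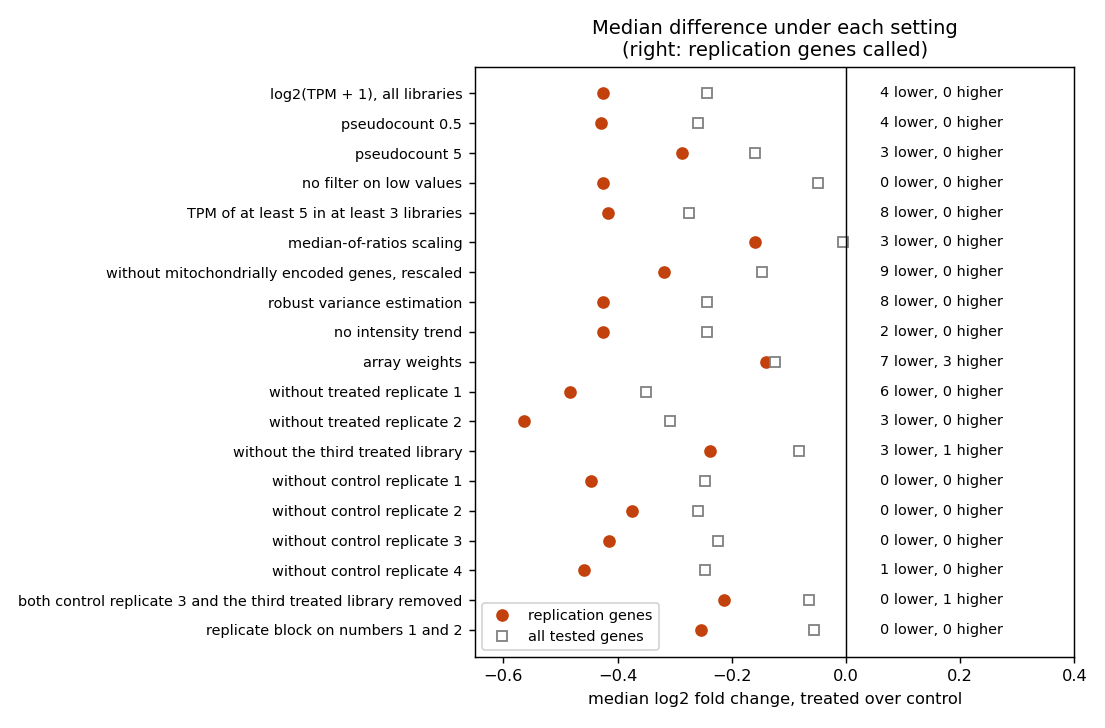
Median log2 fold change of the replication genes (filled circles) and of all tested genes (open squares) under each setting down the page, with the number of replication genes called lower and higher at the right. The circles lie left of the squares under every setting shown, from -0.56 to -0.14, but with array weights the 2 nearly meet (-0.14 and -0.12). The number called lower runs from 0 to 9, where 0.0135% to 28.2% of all tested genes were lower.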

How the data were processed

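RNA from 7 libraries labelled CD8+ T cells was analysed, 3 from mice given propionate with butyrate and 4 from untreated mice. The authors deposited TPM per transcript, in 149132 rows, made with fastp, HISAT2 and StringTie on mm39, per the submitters' processing notes. Versions and settings are not given in the sources used here. TPM keeps no read depth, so the depth is unknown and no counting intervals were computed. Rows were summed per symbol; the 1001 rows without a symbol held 0.307% to 0.618% of a library's TPM and were left out. The third treated column carries a number that matches no sample and entered the treated group unnumbered; 0 other columns of values were left unused.

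The 14967 genes that reached 1 TPM in 3 or more of the 7 libraries were tested on log2(TPM + 1) with limma 3.58.1 (trend, R 4.3.3) and Benjamini-Hochberg adjustment over all of them, with a threshold of 0.05. Fold changes on this scale understate those of low genes. The fit was tested on simulated data. The members and lists were chosen with earlier results of these data known. Full values are given for members that passed and, per role, for the member with the lowest p and that with the highest level. Library values are also given for further members outside this rule, such as Mcm3, Lig1 and Ccne1. Called genes of the wider list are named. Alternatives covered the pseudocount, filter, scaling, mitochondrial genes, variance model, weights, each library left out and a replicate block. Promoter windows are RefSeq sequences of GRCm38.p6, matched by symbol. Protein sequences were not used here.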

Additional observations from a re-analysis of the deposited data

Results flagged for a closer look

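In 5 results 1 control library lay far from the other 3, beside their range; chance flags about 1 in 20 such groups, and 77 were looked at. Orc1 stood at 1.45 TPM in control replicate 2, against 0.95 to 1.01 TPM in the other control libraries. Gins3 stood at 1.84 TPM in control replicate 4, against 1.64 to 1.67 TPM in the others. Control replicate 2 was also high for 2 mitotic genes, with Cdk1, the mitotic kinase, at 61.3 TPM (39.6 to 43.1 TPM in the others) and Ccnb1, its cyclin, at 19.5 TPM (12.4 to 13.3 TPM in the others). The macrophage and monocyte markers summed to 15034 TPM in control replicate 3, against 6199 to 7060 TPM in the others. A group of 3 treated libraries is too small for this comparison.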

How the results depend on the processing

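The median log2 fold change of the replication genes stayed below 0 under every setting run, from -0.56 to -0.14. That of all tested genes did too, from -0.35 to -0.0046. The number of replication genes called lower did not hold steady, and shares in brackets are of all genes tested in the same fit. From 4 (7.59%) it went to 0 with no filter on low values (0.0135%) and to 8 of 30 with a TPM of at least 5 (10.1%). It was 9 without mitochondrial genes (12.1%), 8 with robust variance estimation (9.82%), 2 with no intensity trend (6.67%) and 7 with array weights (28.2%). With control replicate 3 and the third treated library both removed it was 0 (1.84%). Leaving out 1 library at a time gave 0 to 6 lower (3.95% to 19.8% of all tested genes) and 0 to 1 higher (2.64% to 5.38%). Array weights gave 3 higher (15% of all tested genes) and the double removal 1 (4.05%). Of all tested genes, 643 were higher and 1136 lower in the main comparison. These became 3 and 4 with no filter, and 2246 and 4221 with array weights. Higher genes became 1306 with median-of-ratios scaling, and lower genes 1872 without mitochondrial genes and 267 with the double removal. Leaving out 1 library gave 388 to 794 higher and 585 to 2909 lower. Of the other pathway genes, 0 were higher and 4 lower; higher became 5 with median-of-ratios scaling, 2 without mitochondrial genes, 16 with array weights and 1 with the double removal, and lower became 0 with no filter, then 7, 11 and 1 without mitochondrial genes, with array weights and with the double removal. Leaving out 1 library gave 0 to 3 higher and 2 to 8 lower there, with a median from -0.34 to 0.01. Where a number of calls changed, the cause was not tested.

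Only replicate numbers 1 and 2 are shared by the groups, and no label ties them. Deviations of same-numbered samples had r of -0.02 and -0.09, and those of other treated and control libraries ran from -0.23 to 0.19. With so few same-numbered samples this cannot decide whether they were paired. The numbers were not taken as pairs because no label ties them. A fit with a replicate block on those 4 libraries called 0 replication genes and 0 other pathway genes lower, and of all genes 503 higher and 135 lower, so that 21.2% of its calls were lower, against 63.9% in the main comparison. TPM holds no depth, so no limit of detection can be given for low genes such as Orc1.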
